A study of Mus musculus with 6 samples.

Results

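Repeat elements annotated as intergenic on mouse chromosomes 4 and 12 were examined for their RNA level in Trp53 knockout cells against Trp53 wild-type cells. The members were chosen by position and annotation alone: every row of the authors' deposited table of repeats that lies on either chromosome and whose genomic annotation begins with intergenic. That gave 11767 rows, 7087 on chromosome 4 and 4680 on chromosome 12, of 111909 intergenic rows and 773731 rows in all. A row is 1 repeat copy read in 1 direction, so a copy with reads from both strands has 2 rows. The 11767 rows came from 6376 loci on chromosome 4 and 4290 loci on chromosome 12. The comparison set was the 94288 intergenic rows on the other 17 autosomes. The pair of chromosomes was proposed with the fold changes of these same libraries in view, so their levels are given as a description and carry no test.

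The libraries were made from ID8, a cell line derived from the ovarian surface epithelium of C57BL/6 mice and labelled immortalized. There were 3 Trp53_KO libraries (genotype Trp53-/-) and 3 Trp53_WT libraries (genotype Trp53+/+), all from untreated cells in asynchronous growth. DNase-treated total RNA was read with a strand-specific kit. Whether the replicates were separate cultures, and whether the knockout line came from 1 clone, is not given in the sources used here, so p-values cover only the variation among these 6 libraries, and that may be technical. Gene counts summed to between 15319956 and 19954170 per library. Trp53 itself stood at 29.6, 25.5 and 25.3 CPM (counts scaled to a common library total) in Trp53_KO, against 110, 97.3 and 105 CPM in Trp53_WT. Trp53_WT replicate 1 stood apart from the other two Trp53_WT libraries, with a chi-square per degree of freedom over genes of 27.5 and 26.9 in its pairs, against 2.01 between replicates 2 and 3. All 12 ovarian surface markers, keratins and mesothelial genes among them, were tested, with a summed level of 3901 to 4207 CPM in Trp53_KO and 3509 to 3713 CPM in Trp53_WT. The immune list, in which Cd3e, Adgre1 and Itgam were at 0 in every library, summed to 3.86 to 4.24 CPM in Trp53_KO and 4.83 to 5.30 CPM in Trp53_WT. The 6 granulosa and theca markers summed to 20.8 to 23.2 CPM in Trp53_KO and 3.01 to 3.95 CPM in Trp53_WT, with Foxl2, Cyp19a1 and Fshr at 0. The 4 endothelial markers summed to 1.66 to 2.35 CPM in Trp53_KO and 0.150 to 0.196 CPM in Trp53_WT, with Cdh5 and Kdr at 0, and the 4 oocyte markers to 0.321 to 0.664 CPM in Trp53_KO and 0.196 to 0.501 CPM in Trp53_WT, with Zp3 and Figla at 0. The part of these marker levels in the results below was not tested.

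Most repeats are remnants of transposons. SINEs are short elements copied by the machinery of LINEs, LTR elements are relics of retroviruses, and most copies have no promoter that works. RNA over an intergenic copy can come from its own promoter, from a gene that is read past its annotated end, or from an unannotated transcript, and it can also follow the number of DNA copies of the region. p53 is a transcription factor whose loss lowers its direct targets, and it also guards against cells with changed chromosome content. DNA was not measured in these libraries, and whether a change in DNA copy number moved with the values below was not tested.

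One block of intergenic repeats with lower RNA in Trp53_KO surrounded Mir34a, the gene of a microRNA that p53 switches on directly and that represses cell cycle genes. Its mature arms are shown because the block of repeats is read from the same strand as the hairpin, which lies at chr4:150068454-150068555 (GRCm38, the build also called mm10, plus strand). The sequences are from RefSeq (GRCm38.p6), and capitals mark the seed, bases 2 to 8, which pairs with target messages. The arms lie at chr4:150068473-150068494 and chr4:150068517-150068537.
mmu-miR-34a-5p: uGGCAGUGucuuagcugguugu
mmu-miR-34a-3p: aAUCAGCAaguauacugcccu

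Within 20 kb of the Mir34a hairpin the authors' deposited table held 42 intergenic repeat rows, all read in the forward direction. Of these, 41 were below 0 and 1 was above. Their log2 fold changes ran from -4.61 to 0.37 around a median of -2.62. At the authors' FDR (an adjusted p) under 0.05, 15 rows were called lower. Of those 15, 13 lay upstream of the hairpin, as far as 11.1 kb away, and 2 lay downstream, as far as 2.83 kb away. The called copies included 11 SINEs, most of them B1 and B3 copies. Of the 15 copies, 11 are inserted in the opposite orientation to the reads and 4 in the same one. In the authors' deposited table the lowest FDR of the block belonged to a B3 copy at chr4:150058435-150058650, with a log2 fold change of -3.61 (FDR 3.88e-11). Besides Mir34a, the unclassified transcript Gm37795 is annotated inside the block on the same strand, and the lincRNA Gm13067, also on that strand, ends 0.184 kb before the first called row. Mir34a had 0 counts in all 3 Trp53_KO libraries, against 1, 3 and 2 counts in Trp53_WT, too few to be tested as a gene. H6pd, a gene of the endoplasmic reticulum pentose phosphate pathway and the nearest tested gene, was at 76.8 ± 7.6 CPM in Trp53_KO and 80.7 ± 3.4 CPM in Trp53_WT (SD, n = 3 each; edgeR Benjamini-Hochberg adjusted p = 0.58). This block was singled out after its values were seen.

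**Figure D1:**
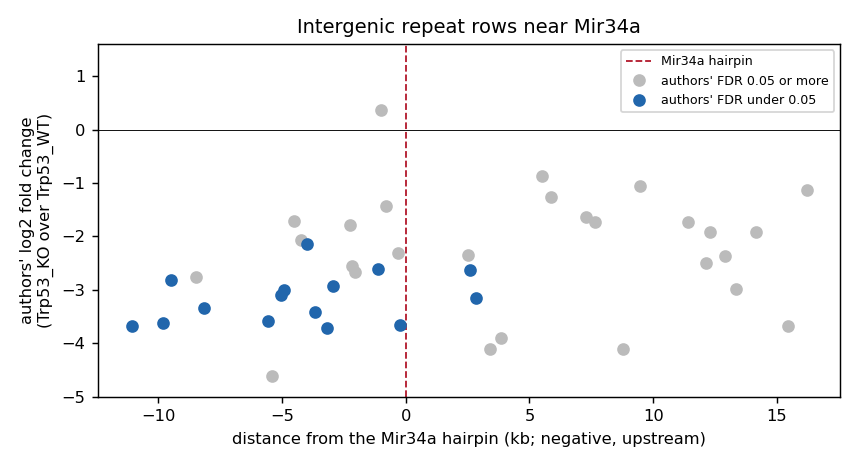
Authors' log2 fold change (Trp53_KO over Trp53_WT) of each intergenic repeat row within 20 kb of Mir34a, by distance from the hairpin in kb, with negative distances upstream. Of the 42 rows 41 lie below 0, and the 15 rows with an FDR under 0.05 run from 11.1 kb upstream to 2.83 kb downstream.

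Taken over whole chromosomes, intergenic repeat rows differed little between Trp53_KO and Trp53_WT. In the authors' deposited table the median log2 fold change was 0.001 on chromosome 4 and 0 on chromosome 12, against 0 on the other autosomes. Medians sat at 0 because many rows hardly differed: 13.3% of chromosome 4 rows, 14.3% of chromosome 12 rows and 13.0% of the other rows were within 0.01 of 0. The means in the authors' deposited table were 0.069 on chromosome 4 and -0.13 on chromosome 12, against -0.058 over the other autosomes. The middle of the rows was far wider than these shifts, with quartiles of -0.75 and 0.86 on chromosome 4 and -0.87 and 0.74 on chromosome 12, against -0.78 and 0.75. Among the 19 autosomes the chromosome 4 mean was the highest and the chromosome 12 mean was 18th. The other 17 ran from -0.14 on chromosome 1 to 0.046 on chromosome 13, so the chromosome 12 mean lies inside their range and the chromosome 4 mean lies just above it. Of the rows that moved by more than 0.01, 53.2% were above 0 on chromosome 4 and 45.5% on chromosome 12, against 47.6% on the other autosomes together and 44.4% to 51.3% on each of them.

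Repeats in introns gave the same order with a wider gap. In the authors' deposited table the 37311 intron rows of chromosome 4 had a mean log2 fold change of 0.12 and the 22587 of chromosome 12 a mean of -0.17, against -0.05 for the 511207 of the other autosomes. The chromosome 4 value was the highest and the chromosome 12 value the lowest of the 19 autosomes, and the other 17 ran from -0.14 to 0.01. Among intergenic rows of chromosome 4, SINEs had the highest class mean, 0.21 over 3097 rows, against 0.048 over the 38033 SINE rows of the other autosomes. LTR rows of chromosome 4 averaged 0.055, against -0.095 on the other autosomes. LINE rows were below 0 everywhere, with means of -0.18 on chromosome 4, -0.28 on chromosome 12 and -0.18 on the other autosomes. The chromosome 4 LINE mean includes very low copies in a stretch described below. Among them are copies of L1_Mus1, which averaged -1.65 over 26 chromosome 4 rows, against -0.17 on the other autosomes. On chromosome 12, SINE rows averaged 0.00 and LTR rows -0.14.

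**Figure D2:**
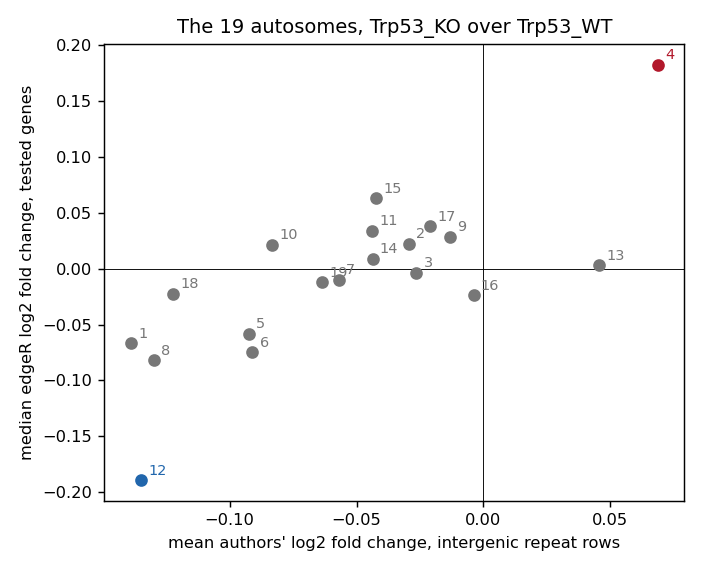
Each point is 1 of the 19 autosomes, labelled by its number. The horizontal axis is the mean of the authors' log2 fold change over intergenic repeat rows, the vertical axis the median edgeR log2 fold change over tested genes. Chromosome 4 sits at 0.069 and 0.18, chromosome 12 at -0.13 and -0.19, and the other 17 lie between -0.08 and 0.06 on the gene axis.

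Along chromosome 4 most bins had a mean above 0, some of them by little. In 10 Mb bins of the authors' deposited table with at least 20 rows, 12 of 16 chromosome 4 bins and 3 of 12 chromosome 12 bins had a mean above 0, against 72 of 227 bins (31.7%) on the other autosomes. The highest chromosome 4 bin means were 0.26 at 50 to 60 Mb and 0.25 at 10 to 20 Mb. By median, the highest chromosome 4 bins were 10 to 20 Mb (0.11) and 140 to 150 Mb (0.09), and the lowest was 60 to 70 Mb (-0.24); 3 bins tied next at 0. On chromosome 12 the lowest bin was the last, 110 to 120 Mb, with a mean of -0.45 and a median of -0.41 over 554 rows. Of the bins on the other autosomes, 0.881% had a lower mean than that bin. The next lowest chromosome 12 median was -0.15 at 80 to 90 Mb. The highest chromosome 12 medians were 0.0005 at both 60 to 70 Mb and 20 to 30 Mb. The bins of the other autosomes ran from -0.71 to 0.50, and no bin of either chromosome fell outside that range.

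**Figure D3:**
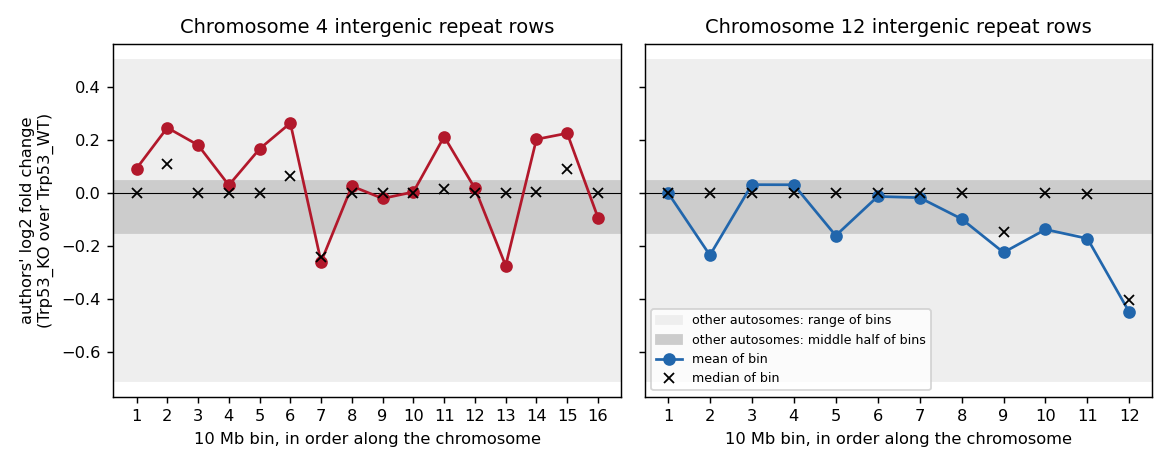
Authors' log2 fold change of intergenic repeat rows in consecutive 10 Mb bins of chromosomes 4 and 12, as the mean (filled points) and the median (crosses). Light grey is the range and dark grey the interquartile range of the bin means of the other autosomes. Bin means are above 0 in 12 of 16 bins of chromosome 4 and in 3 of 12 bins of chromosome 12.

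The fold changes of intergenic rows differed with those of the nearest gene. Among rows within 10 kb of a gene tested by edgeR, those beside a gene that rose had a mean log2 fold change of 0.40 on chromosome 4 and 0.55 on chromosome 12, against 0.33 on the other autosomes. Those beside a gene that fell averaged -0.54 on each of the 2 chromosomes, against -0.52. Beside genes that were not called, the means were 0.06 on chromosome 4 and -0.19 on chromosome 12, against -0.10. Of these neighbour rows, 1269 of chromosome 4 were beside genes that rose, 450 beside genes that fell and 2066 beside genes not called. On chromosome 12 the counts were 144, 618 and 1234, and on the other autosomes 6985, 8058 and 36904. Over rows 100 kb or more from any tested gene the means were -0.033 on chromosome 4 (1596 rows) and -0.095 on chromosome 12 (1712 rows), against -0.013 on the other autosomes (18635 rows). The differences between these means were not tested.

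Tested genes of the same libraries showed the 2 chromosomes apart from the others in the size of their shift. The median edgeR log2 fold change was 0.18 over 717 chromosome 4 genes, a fold of 1.13. It was -0.19 over 388 chromosome 12 genes, a fold of 0.877. It was -0.01 over 9991 genes of the other autosomes, whose single medians ran from -0.08 to 0.06. Per library, the chromosome 4 median (log2 CPM minus the Trp53_WT mean) was 0.18, 0.18 and 0.16 in Trp53_KO, against -0.006, -0.004 and 0.014 in Trp53_WT. For chromosome 12 it was -0.18, -0.16 and -0.21 in Trp53_KO, against -0.002, -0.008 and 0.005 in Trp53_WT. The genotypes did not overlap on either chromosome. They also did not overlap, with smaller shifts, on chromosomes 1, 2, 5, 6, 8, 9, 11 and 15. As shares of the summed CPM of tested genes with a known position, chromosome 4 genes took 5.16%, 5.11% and 5.18% in Trp53_KO. In Trp53_WT they took 4.56%, 4.58% and 4.59%. Chromosome 12 genes took 2.49%, 2.56% and 2.51% in Trp53_KO, against 2.68%, 2.71% and 2.71% in Trp53_WT. Such shares also separated the genotypes on other autosomes. Chromosome 19, with a gene median of -0.01, took 6.13%, 6.28% and 6.36% in Trp53_KO, against 6.85%, 6.87% and 6.84% in Trp53_WT. Chromosome 15 took 5.90%, 5.84% and 6.01% in Trp53_KO, against 5.70%, 5.50% and 5.52% in Trp53_WT. In bulk RNA, fewer cells with a transcript and less RNA per cell cannot be told apart.

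On chromosome 4, 246 genes rose and 67 fell (p under 0.05 by edgeR's quasi-likelihood test after Benjamini-Hochberg adjustment), and on chromosome 12, 32 rose and 131 fell. As shares, 34.3% rose and 9.34% fell on chromosome 4, and 8.25% rose and 33.8% fell on chromosome 12. On the other autosomes 14.4% rose and 16.3% fell, and over all 13651 tested genes 14.1% and 16.1%. Leaving out Trp53_KO replicate 1 moved the chromosome 4 count of genes that rose to 163 and the chromosome 12 count of genes that fell to 80. In 10 Mb bins with at least 10 tested genes, the 3 Trp53_KO medians lay above the 3 Trp53_WT medians in 15 of 15 bins on chromosome 4, where 19.4% of the 211 bins of the other autosomes did so. They lay below in 11 of 12 bins on chromosome 12, where 22.3% of the other bins did so. Gene bin medians ran from 0.10 to 0.29 on chromosome 4 and from -0.37 to -0.06 on chromosome 12.

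**Figure D4:**
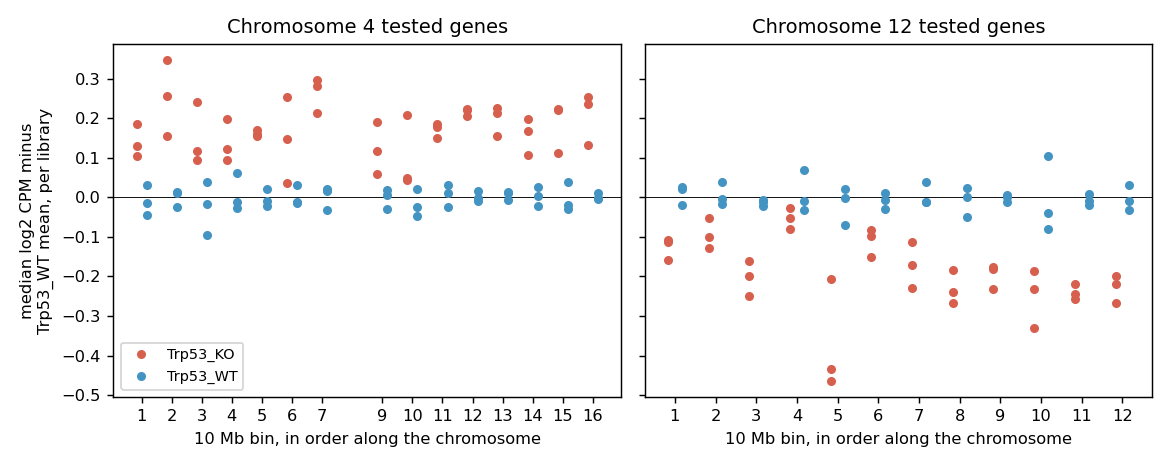
Median over tested genes of log2 CPM minus the Trp53_WT mean, 1 point per library, in consecutive 10 Mb bins of chromosomes 4 and 12, with Trp53_KO left of Trp53_WT in each bin. The 3 Trp53_KO points lie above the 3 Trp53_WT points in 15 of 15 bins of chromosome 4 and below them in 11 of 12 bins of chromosome 12.

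Repeats and genes were also compared bin by bin. Across the 15 chromosome 4 bins with both values, Pearson's r between the mean of the authors' repeat fold changes and the gene median was -0.30 and Spearman's rho was -0.08. The chromosome 4 bins include 120 to 130 Mb, with a repeat mean of -0.27, which holds the low stretch described below. Across the 12 chromosome 12 bins r was 0.36 and rho 0.51, and across the 211 bins of the other autosomes r was 0.32 and rho 0.34. Over the 27 bins of chromosomes 4 and 12 together r was 0.49 and rho 0.44. Repeats and genes had the same sign in 11 of 15 chromosome 4 bins and 9 of 12 chromosome 12 bins, against 130 of 211. These describe bins that share libraries and neighbouring transcripts. The bin at 60 to 70 Mb of chromosome 4 was an example of disagreement: its genes had the highest bin median of the chromosome, 0.29, while its 194 intergenic repeat rows averaged -0.26. The last bin of chromosome 12 was low in both, at -0.22 for genes and -0.45 for repeats.

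Called rows were a small part of the members. In the authors' deposited table, 117 chromosome 4 rows were higher (1.65%) and 65 lower (0.917%) at an FDR under 0.05, and 38 chromosome 12 rows were higher (0.812%) and 12 lower (0.256%). On the other autosomes the shares were 0.771% higher and 0.336% lower, over repeat rows of every annotation they were 0.388% and 0.284%, and single autosomes ran from 0.525% to 1.09% higher and from 0.127% to 0.662% lower. The chromosome 12 shares were therefore within the range of the other autosomes in both directions, and the chromosome 4 shares were above it in both. The lower share of chromosome 4 rested on 1 stretch, described below: without the 3 Mb that hold it the share was 0.494%, inside that range, while the higher share was 1.67%.

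Several subfamilies with many higher rows on the 2 chromosomes also had means above 0 on the other autosomes. B2_Mm1a and B2_Mm1t, the youngest B2 SINEs, had mean log2 fold changes of 0.93 and 0.89 on chromosome 4 and 0.91 and 0.60 on chromosome 12, against 0.87 and 0.77 on the other autosomes, in the authors' deposited table. The internal part of MMERVK10C, an endogenous retrovirus, averaged 1.29 on chromosome 4 and 0.52 on chromosome 12, against 1.22. MMVL30-int, the internal part of the VL30 retrotransposon, averaged 1.52 and 0.63, against 1.07. Together with IAPEY4_I-int and RLTR6_Mm these 6 subfamilies held 64 of the 117 higher rows of chromosome 4 (54.7%) and 25 of the 38 of chromosome 12 (65.8%), against 447 of 727 elsewhere (61.5%). The 6 were picked among subfamilies with called rows in these same data, so large shares follow from the choice. RLTR6-int, with 4 higher rows on chromosome 4, 2 on chromosome 12 and 24 elsewhere, was left out of the 6. The retrovirus MMERGLN went the other way, at -1.15 on chromosome 4 and -0.97 on chromosome 12, against -0.87 elsewhere, and with its LTR it gave 15 of the 65 lower rows of chromosome 4 and 0 of the 12 of chromosome 12, against 42 of 317 elsewhere. After the other autosomes' mean of each subfamily was subtracted, the chromosome means were 0.11 and -0.091, and single autosomes among the other 17 ran from -0.08 to 0.09.

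Single rows with the lowest FDR showed both kinds of copy. In the authors' deposited table the lowest FDR among higher rows of chromosome 4 belonged to an MMVL30-int copy at chr4:149434582-149437410 (log2 fold change 1.61, FDR 6.54e-61), followed by an IAPEY4_I-int copy at chr4:3192538-3200204 (1.46, FDR 3.60e-30). The third was a 128-base MIR, an ancient SINE, at chr4:9863010-9863137 (4.55, FDR 3.25e-28), 0.665 kb past the end of Gdf6. On chromosome 12 the authors' deposited table gave the lowest FDR to an IAPEY4_I-int copy at chr12:23598016-23605683 (1.51, FDR 1.41e-92), then an RLTR6-int copy at chr12:59223243-59224048 (1.86, FDR 5.11e-24) and an IAPEY4_I-int copy at chr12:24357145-24364742 (1.56, FDR 7.99e-18). The lowest FDRs among lower rows of chromosome 4 were L1_Mus1 copies, a mouse LINE-1 subfamily, at chr4:122176989-122181124 (-8.63, FDR 1.49e-41) and chr4:122509343-122513480 (-8.19, FDR 1.89e-35), and an MMERGLN-int copy at chr4:39385533-39390651 (-1.63, FDR 1.10e-26). Those of chromosome 12 in the authors' deposited table were RLTR6-int at chr12:87935182-87942857 (-2.28, FDR 4.66e-11), L1Md_F3 at chr12:18041717-18046941 (-2.82, FDR 8.79e-05) and B1_Mus1 at chr12:87892833-87892940 (-3.50, FDR 2.05e-04).

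Called rows were grouped by position. Rows called in the same direction and at most 50 kb apart were joined, which put the 117 higher rows of chromosome 4 into 64 groups and the 65 lower rows into 23. Groups of at least 3 rows held 55 of the higher and 42 of the lower rows (47.0% and 64.6%), against 35.9% and 49.5% on the other autosomes. On chromosome 12 they held 9 of 38 higher and 4 of 12 lower rows (23.7% and 33.3%), lower shares than on the other autosomes. Single rows made up 46 of the 117 higher rows of chromosome 4.

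The largest higher group of chromosome 4 had 16 called rows at chr4:84049633-84087195, with a median log2 fold change of 2.82 in the authors' deposited table. All 31 intergenic rows inside it were read in reverse, and all 31 were above 0. No gene within 20 kb was tested there. The lincRNA 6030471H07Rik, on the same strand as the reads, has its start 4.75 kb away, so that the group lies upstream of it. The nearest tested gene, Ccdc171 on the other strand, lies 185 kb away and had a log2 fold change of -0.08 (edgeR adjusted p = 0.69). Bnc2, a zinc finger gene slightly farther off on the strand of the reads and picked after its value was seen, was at 61.3 ± 1.3 CPM in Trp53_KO and 22.7 ± 3.9 CPM in Trp53_WT (SD, n = 3 each; log2 fold change 1.44, adjusted p = 9.73e-06 by edgeR with Benjamini-Hochberg adjustment). Of the 10 higher groups of at least 3 rows, 4 lay within 1 kb of a gene that rose and were read from its strand. Of all 64 higher groups, 26 lay within 10 kb of their nearest tested gene, and for 12 that gene rose. On the other autosomes 157 of 474 higher groups lay that near, and for 50 that gene rose. Among all tested genes, 34.3% rose on chromosome 4 and 14.4% on the other autosomes. The 4 rows at chr4:9862611-9869056 (median 5.03) began 0.266 kb past Gdf6, a BMP family ligand, which was at 189, 165 and 167 CPM in Trp53_KO, against 3.24, 3.71 and 3.70 CPM in Trp53_WT. The 8 rows at chr4:129441150-129447318 (median 3.64) began 0.297 kb upstream of the start of Zbtb8b, a zinc finger gene, at 16.8, 17.5 and 16.9 CPM in Trp53_KO, against 1.69, 1.48 and 1.45 CPM in Trp53_WT. The 3 rows at chr4:154275795-154276625 (median 4.09) began 0.082 kb past Megf6, a gene with EGF-like repeats. The 3 rows at chr4:62505144-62508443 (median 1.39) lay 0.726 kb past Alad, an enzyme of haem synthesis, whose log2 fold change was 0.95 (adjusted p = 7.01e-05, edgeR with Benjamini-Hochberg adjustment). The other 5 groups were made largely of LTR pieces, among them MMVL30, IAP, RLTR4 and RLTR6. Of the nearest tested genes of those 5 groups, Ube4b, Rsg1, Ahdc1 and Rab2a did not pass the test, with log2 fold changes of 0.31, -0.06, 0.23 and 0.05 (edgeR adjusted p of 0.098, 0.89, 0.34 and 0.64). Dmap1, 16.4 kb away and on the opposite strand to the reads, rose by 0.41 (edgeR adjusted p = 0.031) but did not pass without Trp53_KO replicate 1 (edgeR adjusted p = 0.106) or without Trp53_KO replicate 3 (edgeR adjusted p = 0.100).

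Chromosome 12 had 3 groups of at least 3 rows. The 5 rows at chr12:59222623-59227141 were MMVL30-int, RLTR6-int and RLTR6_Mm pieces with a median of 1.64 in the authors' deposited table. They lay 2.90 kb from Fbxo33, an F-box gene, which was at 47.6 ± 2.2 CPM in Trp53_KO and 49.7 ± 2.4 CPM in Trp53_WT (SD, n = 3 each; edgeR Benjamini-Hochberg adjusted p = 0.57). The 4 rows at chr12:23021843-23027043 were MMVL30-int and RLTR6B_Mm pieces with a median of 2.88. The 4 lower rows at chr12:18026954-18046941 were LTR, LINE-1 and satellite copies with a median of -2.83 and lay inside the pseudogene Gm49329.

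A wide stretch of low values lay on chromosome 4 in the bin at 120 to 130 Mb. From the first to the last row called lower in the authors' deposited table it ran over chr4:121764514-123062813, 1.30 Mb. Its 125 intergenic rows had a mean log2 fold change of -2.86 and a median of -3.11, with 112 below 0, 10 above and 3 near 0. Of them 31 were called lower and none higher, so the stretch held 31 of the 65 lower rows of the chromosome (47.7%). Over rows of every annotation, 216 of 440 were called lower and 1 higher. Intron rows were low in both read directions, with means of -2.42 over 179 forward rows and -2.40 over 117 reverse rows. Within the same 3 Mb, intergenic rows to the right of the stretch averaged 0.32 in forward direction (33 rows) and 0.34 in reverse (23 rows), and those to its left averaged -0.01 in reverse (22 rows). Without the 205 rows of those 3 Mb, chromosome 4 had a mean of 0.12 and 0.494% of its rows were lower. The stretch was singled out after its values were seen.

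All 4 tested genes in the stretch fell, with no overlap of the genotypes. Among all tested genes, 87 of 717 on chromosome 4 were lower in Trp53_KO without overlap and 324 were higher. On the other autosomes 2442 of 9991 were lower without overlap and 2292 were higher. Ppt1, a lysosomal thioesterase, was at 52.6, 46.8 and 48.2 CPM in Trp53_KO, against 314, 339 and 328 CPM in Trp53_WT, and Cap1, an actin regulator that overlaps Ppt1 by 129 bases on the other strand, was at 199, 190 and 195 CPM, against 888, 889 and 936 CPM. Mfsd2a, a lipid transporter, was at 25.3, 19.7 and 22.8 CPM in Trp53_KO, against 78.6, 79.3 and 69.2 CPM in Trp53_WT, and Trit1, a tRNA-modifying enzyme, was at 22.3, 24.0 and 25.2 CPM, against 114, 118 and 107 CPM. Of the tested genes on either side, Rlf to the left stood at 0.16 on the log2 scale (adjusted p = 0.10 by edgeR with Benjamini-Hochberg adjustment) and Ppie to the right rose by 0.36 (adjusted p = 0.008). Mycl, inside the stretch, had 9, 13 and 7 counts in Trp53_KO, against 14, 4 and 6 in Trp53_WT, too few to be tested.

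An L2b copy of the stretch overlaps the far end of the 250 bases upstream of Trit1, and those bases are shown for it. They lie at chr4:123016343-123016592 on the plus strand (RefSeq, GRCm38.p6), and capitals mark the 34 bases that belong to the L2b copy, an old LINE. In the authors' deposited table that L2b row had a log2 fold change of -3.33 (FDR 0.040).
Trit1 upstream window: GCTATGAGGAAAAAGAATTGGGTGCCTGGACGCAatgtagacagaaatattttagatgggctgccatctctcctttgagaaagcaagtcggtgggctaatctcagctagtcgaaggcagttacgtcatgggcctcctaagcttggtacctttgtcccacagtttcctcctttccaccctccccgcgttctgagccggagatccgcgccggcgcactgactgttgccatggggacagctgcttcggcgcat

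**Figure D5:**
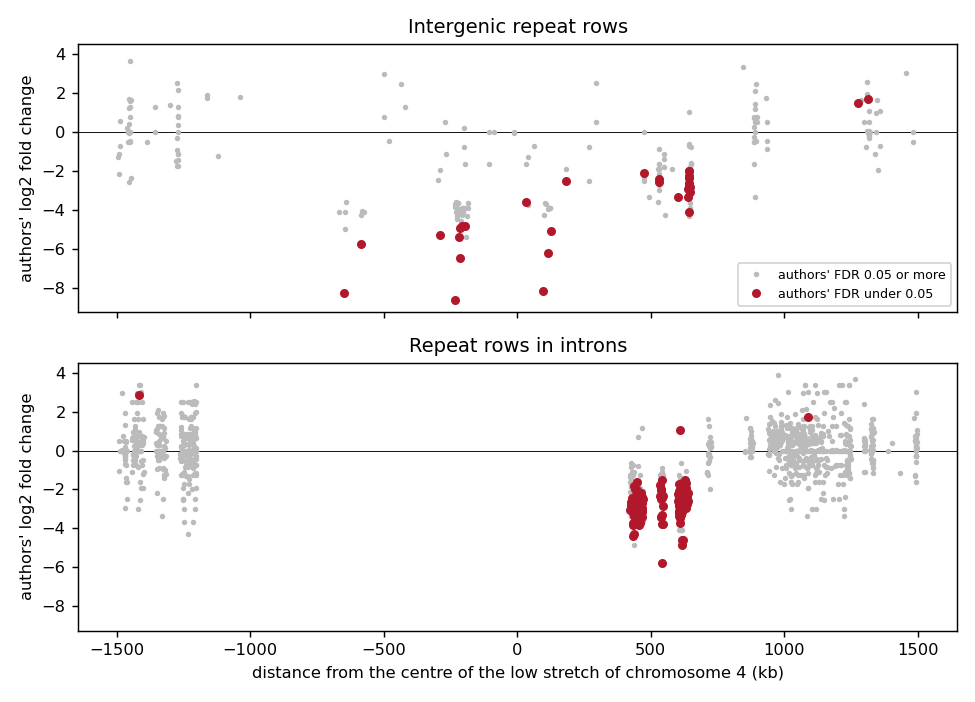
Authors' log2 fold change of repeat rows by distance in kb from the centre of the low stretch of chromosome 4, for intergenic rows (top) and rows in introns (bottom). Filled red points have an FDR under 0.05. Within the stretch 112 of 125 intergenic rows lie below 0. Outside it rows lie both above and below 0, with intergenic means to the right of 0.32 (forward) and 0.34 (reverse).

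Single 250 kb windows with at least 20 intergenic and intron rows of the authors' deposited table were scanned on every autosome. Adjacent windows were not joined, so the counts are of windows and not of stretches as long as the one above. Parts of that stretch with fewer rows, such as 122.25 to 122.5 Mb with 10, were not scanned. Of 4646 windows, 36 had a mean of -1 or lower with at least 5 lower rows. Chromosome 4 had 4 of the 36, 3 of them in the stretch above and 1 at 150 to 150.25 Mb, which holds Mir34a, and chromosome 12 had 0. Windows with a mean of at least 1 and at least 5 higher rows numbered 32, of which 5 were on chromosome 4 and 2 on chromosome 12. How many of the 4646 windows lay on each chromosome was not counted, so these numbers are not shares. Intergenic and intron rows numbered 7087 and 37311 on chromosome 4 and 4680 and 22587 on chromosome 12. On the other autosomes they numbered 94288 and 511207.

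Named genes of the 2 chromosomes show how far single genes went beyond these shifts. On chromosome 4, Tnc (tenascin C, a matrix protein) was at 51.0, 41.5 and 49.0 CPM in Trp53_KO, against 0.608, 0.445 and 0.375 CPM in Trp53_WT. Unc13b, a vesicle priming factor, was at 19.8 ± 0.5 CPM in Trp53_KO and 0.477 ± 0.21 CPM in Trp53_WT, and Megf6 at 37.7 ± 7.4 and 1.28 ± 0.38 CPM (SD, n = 3 each). For Angptl7, a secreted relative of the angiopoietins, 1061 counts fell on the Trp53_KO libraries and 3 on the Trp53_WT libraries, a depth-adjusted ratio of 345 with an exact 95% counting interval of 118 to 1677. The edgeR Benjamini-Hochberg adjusted p-values of these genes and Gdf6 were between 1.11e-09 (Gdf6) and 2.57e-07 (Megf6). Besides Ppt1, Trit1 and Cap1, the largest falls were Epb41l4b, a membrane-cytoskeleton linker, at 4.88 ± 0.45 CPM in Trp53_KO and 39.6 ± 1.0 CPM in Trp53_WT, and Rab3b, a secretory GTPase, at 11.2 ± 0.7 and 46.0 ± 3.9 CPM (SD, n = 3 each; edgeR adjusted p = 2.75e-08 and 3.24e-07).

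On chromosome 12 the genes with the largest rises went against the direction of the chromosome. Fbln5, an elastic fibre protein, was at 14.1 ± 1.2 CPM in Trp53_KO and 0.337 ± 0.039 CPM in Trp53_WT, and Sptb, a spectrin, at 40.2 ± 4.5 and 1.86 ± 0.63 CPM (SD, n = 3 each). Ak7, an adenylate kinase, was at 28.2 ± 1.1 CPM in Trp53_KO and 1.96 ± 0.57 CPM in Trp53_WT, Jag2, a Notch ligand, at 8.97 ± 1.10 and 1.13 ± 0.08 CPM, and Akap5, a kinase anchor, at 50.3 ± 1.0 and 6.67 ± 0.94 CPM (SD, n = 3 each). Their edgeR Benjamini-Hochberg adjusted p-values lay between 3.62e-08 and 9.75e-07. The falls were smaller: log2 fold changes were -1.72 for Tspan13, a tetraspanin, -1.57 for Ahnak2, -1.24 for Pqlc3, -1.10 for Tnfaip2, a gene induced by TNF, and -1.06 for Inf2, an actin-nucleating formin (edgeR adjusted p from 1.34e-06 to 0.010). Inf2 was at 62.2, 53.8 and 63.4 CPM in Trp53_KO, against 190, 94.0 and 91.5 CPM in Trp53_WT. Its high value came from Trp53_WT replicate 1, and without that library the log2 fold change was -0.63 (edgeR adjusted p = 3.47e-06). Without Trp53_KO replicate 2 it was -0.98 and no longer passed (edgeR adjusted p = 0.053).

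Listed growth and tumour genes were counted on each chromosome. Of 38 listed chromosome 4 genes, 26 were tested, 10 rose and 4 fell, with a median log2 fold change of 0.21; over all tested genes of that chromosome 34.3% rose and 9.34% fell. Of 42 listed chromosome 12 genes, 31 were tested, 5 rose and 13 fell, with a median of -0.15; over all tested genes of that chromosome 8.25% rose and 33.8% fell. Over all tested genes the median was -0.02. Tnc and Cap1, given above, are among the listed genes of chromosome 4 that rose and fell. On chromosome 4, Ptprd, a receptor phosphatase, was at 148 ± 1 CPM in Trp53_KO and 24.9 ± 1.8 CPM in Trp53_WT, Plk3, a stress kinase, at 21.2 ± 0.9 and 12.8 ± 0.2 CPM, Faap20, of the Fanconi anaemia pathway, at 13.6 ± 1.3 and 7.43 ± 0.44 CPM, and Lyn, a Src family kinase, at 44.3 ± 3.8 and 31.1 ± 1.1 CPM (SD, n = 3 each; edgeR adjusted p from 1.88e-08 to 0.0015). On chromosome 12, Id2 (an inhibitor of helix-loop-helix factors), Ahr (the aryl hydrocarbon receptor) and Nfkbia (the NF-kB inhibitor) fell by 0.87, 0.72 and 0.76 on the log2 scale, while Mlh3, of mismatch repair, rose by 0.95 and Dnmt3a, a DNA methyltransferase, by 0.45 (edgeR adjusted p from 6.73e-05 to 0.0031).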

How the data were processed

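RNA libraries of ID8 cells, 3 Trp53_KO and 3 Trp53_WT, were analysed from deposited tables. The repeat table holds the authors' log2 fold change and FDR (an adjusted p-value) per repeat copy and read direction, with no value per library. The gene table holds the authors' raw counts per gene symbol, totalling 15319956 to 19954170 per library. STAR, featureCounts, edgeR and build mm10 are named per the submitters' processing notes; their versions, the handling of reads that map to several repeat copies and the set over which the FDR was adjusted are, in the sources used here, not given, and reads of near-identical copies may be shared between rows. The repeat values were taken as log2 because the fold change of intron rows over that of their genes had a median ratio of 1.07 (713 rows). Read direction was taken as the transcript's strand, since it matched the strand of the gene in 88.0% of 38905 rows.

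Genes were tested with edgeR 4.0.16 (R 4.3.3; TMM, filterByExpr, quasi-likelihood test, Benjamini-Hochberg over 13651 genes, threshold 0.05); the fit was checked on simulated data. Of these, 11485 had a unique symbol in GENCODE M21 (GRCm38, the same build as mm10), which gave positions. Log2 CPM used a prior count of 2. Bins were 10 Mb and began at base 1. Alternatives were other normalizations (RLE, upper quartile), other filters, DESeq2 1.42.0, a replicate block, leaving out each library, and other bins and row sets. Named genes on each chromosome were the 5 largest changes per direction among called genes with at least 5 CPM on average, no overlap of genotypes and an established name rather than a predicted gene model, plus up to 6 genes per list, of which 1 is not reported here; named repeat rows were the 3 lowest FDRs per direction. Genes beside groups of called rows were added after their values were seen. The members and lists were chosen with earlier results of these data known. Another table, a subset of the repeat table, was not used. The exact counting interval covers counting error only.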

Additional observations from a re-analysis of the deposited data

How the results depend on the processing

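The chromosome 4 value, 0.001 as a median of the authors' log2 fold changes, was 0.069 as a mean. It was 0.11 after subtracting subfamily means and 0.061 over rows not called. Over rows 100 kb or more from a tested gene, which include rows of the low stretch, it was -0.033, below 0. For chromosome 12 (0 as a median) the same settings gave -0.13, -0.091, -0.15 and -0.095. Higher chromosome 4 rows numbered 75 at an FDR under 0.01 and 40 at least 10 kb from any annotated gene, against 117; lower rows numbered 17 that far from a gene and 34 without the 3 Mb around the low stretch, against 65. For chromosome 12 the rows 10 kb or more from a gene numbered 9 higher and 3 lower, against 38 and 12, and 4 were lower at an FDR under 0.01. By mean, 58.3% of chromosome 12 bins lay below the middle of the other autosomes' bins, against 33.3% by median. The gene median of chromosome 4 was 0.20 with RLE, DESeq2 and no filter (0.18 in the report), and that of chromosome 12 was -0.15 with no filter. Leaving out 1 library gave chromosome 4 medians of 0.18 to 0.20, 163 to 301 genes higher on chromosome 4 and 80 to 157 lower on chromosome 12. No gene named in the report and past the threshold changed direction. Of the genes given values, Dmap1 lost its call without Trp53_KO replicate 1 or 3 and Inf2 without Trp53_KO replicate 2; Ube4b gained one in 4 settings and Ahdc1 in 1. Under the replicate block the chromosome 4 median was 0.18 and the chromosome 12 median -0.19; same-numbered libraries did not deviate together (r = -0.05, 0.08 and -0.12), so the numbers were not taken as pairs. The subfamily, uncalled-row and 100 kb settings, repeat bins by mean, leaving out those 3 Mb and gene bins without Trp53_WT replicate 1 were chosen after seeing the data. Repeat rows have no values per library, so their spread between replicates is unknown.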
